A study of Mus musculus with 9 samples.

Results

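The kinases, scaffolds and target that form the *Map3k12* and JNK pathway were followed through RNA-seq of mouse embryonic lenses. The 10 genes were chosen by symbol: *Map3k12*, *Map3k13*, *Map2k4*, *Map2k7*, *Mapk8*, *Mapk9*, *Mapk10*, *Mapk8ip1*, *Mapk8ip3* and *Jun*. All 10 were found, each as 1 entry, among 15820 entries of the deposited table that carry a symbol. A further 6193 entries carry none and hold 25.0% to 35.5% of the summed values of a library. Whether signal of the 10 genes lies among them was not tested. Lenses were taken at embryonic stage E16.5 from 3 genotypes: control (Mafg+/-:Mafk+/-), compound KO (Mafg-/-:Mafk+/-) and double KO (Mafg-/-:Mafk-/-). Each genotype has 3 libraries, and each library holds the RNA of 8 pooled lenses. The alleles are germline deletions, kept mainly on an ICR background, and every control embryo carries 1 mutant allele of each gene, so no wild-type lens is among the groups. *Map3k12* was picked by the study from these same libraries, so that its direction here is not independent evidence. The study also reported lower *Map3k12* in double KO lenses by RT-qPCR, a measure that is not part of the values used here.

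Values are the authors' normalized CPM, that is, depth-scaled read counts further scaled by a composition factor for each library, and their sums ranged from 728036 to 1131184 between libraries. Sequencing depth is unknown, so precision is given by the spread of the replicates. *Mafg* was between 112.9 and 134.5 in control libraries and between 10.1 and 26.2 in the other 6, and *Mafk* was at most 0.6 in double KO libraries and at least 4.3 elsewhere, as labelled. Compound KO replicate 1 stood apart. Summed markers of neural retina and neurons reached 1666 there against 46.3 to 404.1 in the other 8 libraries, those of mesenchyme and fibroblasts 2246 against 17.6 to 224.9, and those of lens fiber cells 38310 against 75430 to 124400. Lens epithelium markers, with all 8 genes found, summed to 710.1 in that library and to between 901.1 and 1054 in the other 8. Single genes of this list went both ways there. *Foxe3* (36.0) and *Cdh1* (79.9) were at their lowest in compound KO replicate 1, and *Pax6* (162.7) and *Gja1* (219.7) at their highest. Markers of erythroid cells were between 1171 and 1640 in control and between 2340 and 3879 in double KO libraries, and those of skeletal muscle were between 8.7 and 11.2 in control and between 36.2 and 101 in double KO libraries. In such bulk RNA, fewer cells of a type and less RNA per cell cannot be told apart.

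**Figure D1:**
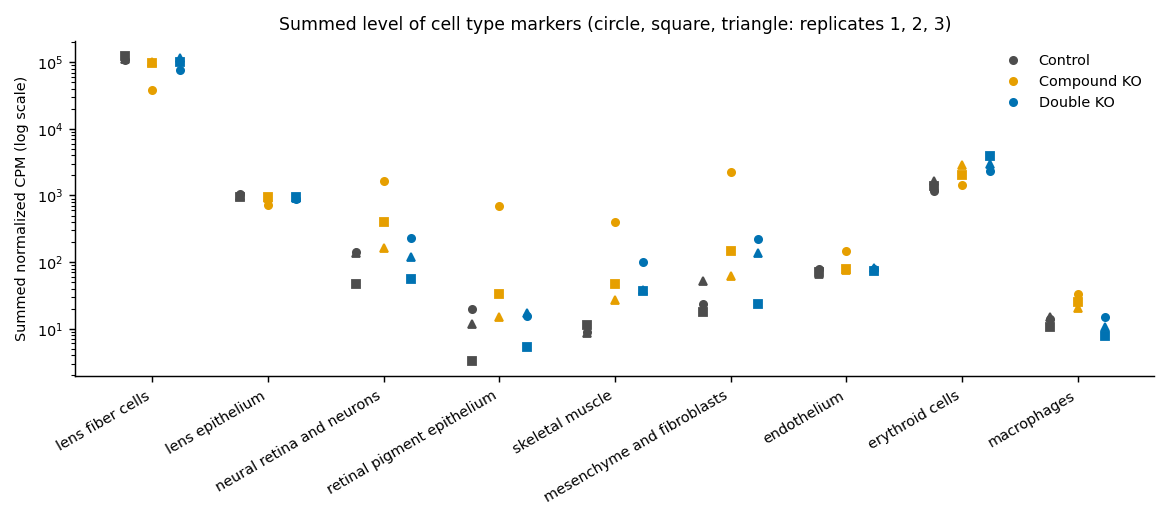
Summed normalized CPM of 9 marker lists (log axis) in each of the 9 libraries, coloured by genotype, with circle, square and triangle for replicates 1, 2 and 3. Compound KO replicate 1 is the highest point for neural retina, at 1666, and for mesenchyme, at 2246, and the lowest for lens fiber cells, at 38310.

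The JNK cascade is a relay of protein kinases. Map3k12 (DLK) and its relative Map3k13 (LZK) are leucine zipper kinases that phosphorylate Map2k4 and Map2k7, which in turn switch on the JNKs, Mapk8, Mapk9 and Mapk10. Scaffold proteins such as Mapk8ip1 and Mapk8ip3 hold these layers together and link them to motor proteins, and Jun, a bZIP factor of the AP-1 family, is the classical JNK substrate. Map3k12 is best known for axon injury responses in neurons.

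Promoter windows of RefSeq (build GRCm38.p6, 250 bases before to 50 after a start) were available for 9 of the 10 genes, 14 windows in all, and *Mapk8ip1* was not matched. Small Maf proteins bind DNA with CNC partners at antioxidant response elements, so the windows were searched on both strands for TGACNNNGC (the core of that element), TGACTCA (AP-1), TGACGTCA (CRE) and TGCTGA (a Maf half-site). An AP-1 match followed by GC also counts for the first. Of 32851 windows in the table, 12.4% hold the first, 5.2% the second, 1.79% the third and 19.5% the fourth. The sequences shown are the 250 bases upstream of the starts of *Map3k12*, *Map2k4* and *Map2k7*, since *Map3k12* and *Map2k4* differed most between double KO and control lenses and *Map2k7* holds an element core. They lie at chr15:102517005-102517254 and chr15:102510701-102510950 (minus strand) for *Map3k12*, at chr11:65788360-65788609 (minus strand) for *Map2k4* and at chr8:4238490-4238739 (plus strand) for *Map2k7*, and are written 5′ to 3′ with matches in capitals.
Map3k12 window 1: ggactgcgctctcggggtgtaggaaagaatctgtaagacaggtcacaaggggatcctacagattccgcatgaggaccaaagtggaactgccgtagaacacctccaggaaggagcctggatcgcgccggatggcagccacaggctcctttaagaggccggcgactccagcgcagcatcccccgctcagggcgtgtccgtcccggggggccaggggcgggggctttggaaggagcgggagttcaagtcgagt
Map3k12 window 2: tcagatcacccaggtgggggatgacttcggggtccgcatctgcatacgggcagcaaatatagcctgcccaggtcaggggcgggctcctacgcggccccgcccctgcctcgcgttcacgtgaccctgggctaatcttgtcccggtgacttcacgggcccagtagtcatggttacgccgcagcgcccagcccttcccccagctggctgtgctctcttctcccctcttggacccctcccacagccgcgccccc
Map2k4 window 1: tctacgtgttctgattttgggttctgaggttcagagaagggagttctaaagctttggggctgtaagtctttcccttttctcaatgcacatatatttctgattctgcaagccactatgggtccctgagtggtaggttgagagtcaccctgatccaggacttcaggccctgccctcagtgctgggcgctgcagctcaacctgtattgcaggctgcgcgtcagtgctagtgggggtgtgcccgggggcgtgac
Map2k7 window 1: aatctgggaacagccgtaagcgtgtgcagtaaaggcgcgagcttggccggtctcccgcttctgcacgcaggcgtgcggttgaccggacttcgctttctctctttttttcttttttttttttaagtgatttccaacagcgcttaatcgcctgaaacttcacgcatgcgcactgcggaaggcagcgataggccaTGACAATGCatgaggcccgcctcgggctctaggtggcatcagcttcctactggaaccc
Neither window of *Map3k12* and neither of *Map2k4* holds any of the 4 motifs over its whole length. The first window of *Map2k7* holds 1 element core, which begins 58 bases before the start, and the second holds 2 Maf half-sites. The second window of *Mapk8* also holds an element core, and the first of *Mapk10* holds a CRE. These are matches of letters, and the data include no measure of binding.

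In control lenses the pathway was led by a scaffold and by its transcription factor. Levels are compared between genes per kilobase of exon, with exon lengths from GENCODE M39 on GRCm39, the build of the alignments. The length is the union of exons over all annotated transcripts, which number from 2 for *Jun* to 93 for *Mapk8ip3*. Small differences between genes therefore depend on the annotation. *Mapk8ip1* was highest, at 31.2 ± 1.87 normalized CPM per kb (SD, n = 3), and *Jun* followed at 13.2 ± 0.191 (SD, n = 3). *Map2k7* came next at 5.05 ± 3.27 (SD, n = 3). *Mapk8*, *Mapk10*, *Map3k12* and *Mapk8ip3* followed with means between 1.28 and 1.40, and each overlapped its neighbour in this order. Lower down, *Mapk9* (0.775 ± 0.342) and *Map2k4* (0.623 ± 0.248) overlapped with each other, and *Map3k13* was lowest at 0.348 ± 0.0331 (SD, n = 3 each). In this genotype *Map3k12* was thus the more abundant of the paired zipper kinases and *Map2k7* the more abundant of the paired JNK kinases. In double KO lenses *Map2k4* stood at 5.17 ± 2.76 and *Map2k7* at 5.77 ± 2.64 per kb (SD, n = 3), with overlapping libraries, and *Map3k12* at 0.225 ± 0.320 and *Map3k13* at 0.287 ± 0.105 (SD, n = 3), also with overlap.

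**Figure D2:**
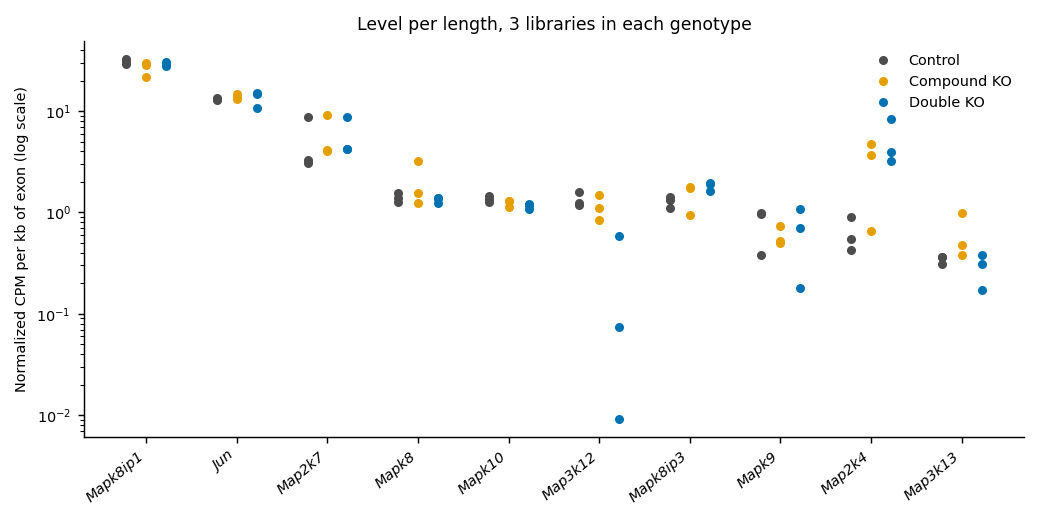
Normalized CPM per kilobase of exon (log axis) of the 10 genes in each library, ordered by the control mean and coloured by genotype. *Mapk8ip1* lies at the top in all genotypes, the double KO points of *Map3k12* spread from 0.00926 to 0.593, and those of *Map2k4* lie from 3.23 to 8.34, above the control points.

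*Map3k12* lies on chromosome 15 of GRCm39 from 102406017 to 102427148, on the minus strand. Its level was 17.0, 13.4 and 12.9 normalized CPM in control replicates 1, 2 and 3, 11.9, 16.2 and 9.2 in compound KO replicates and 0.1, 0.8 and 6.4 in double KO replicates. Every double KO library was below every library of the other genotypes, and replicate 3 was the nearest to them. On the scale of log2 of the value plus 1, used throughout, double KO minus control was −2.65 (the log2 fold change), with a 95% interval from −4.39 to −0.90 and an unadjusted p of 0.0104, and after Benjamini-Hochberg adjustment over the 14122 genes tested it was not called (adjusted p = 0.31, limma). Without double KO replicate 3 it was called, at −3.45 with an adjusted p of 0.0374, and over the other settings tried the adjusted p lay between 0.31 and 0.59 (limma). With a pseudocount of 0.1 in place of 1 it was larger, at −3.77, with a standard error of 1.23 and an adjusted p of 0.415 (limma). The annotation places 2 protein-coding genes across the ends of *Map3k12* on the other strand, *Tarbp2* and *Pcbp2*. *Tarbp2*, whose product works in microRNA processing, was between 12.0 and 14.8 in control and between 13.1 and 21.0 in double KO libraries, and *Pcbp2*, which encodes an RNA-binding protein, was at 24.3 in control replicate 1 and between 62.7 and 107.1 in the other 8 libraries. Their part in the *Map3k12* values was not tested.

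The relative *Map3k13* (chromosome 16, 21613096 to 21752189) was low, at 2.7, 3.2 and 3.2 in control, 8.6, 4.2 and 3.3 in compound KO and 3.3, 1.5 and 2.7 in double KO replicates. All compound KO libraries were above the control libraries, and the double KO libraries overlapped with them. For double KO against control its log2 fold change was −0.24 (95% interval −0.79 to 0.31, adjusted p = 0.784, limma). The highest value fell in compound KO replicate 1, and without it the log2 fold change between compound KO and control lenses went from 0.57 to 0.23. Summed markers of neurons, mesenchyme, retinal pigment epithelium and skeletal muscle were all highest in that library, and their part in the *Map3k13* values was not tested.

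The kinase *Map2k4* differed in the opposite direction to *Map3k12*. It lies on chromosome 11 from 65579068 to 65679182 on the minus strand and encodes MKK4, which also acts on p38 kinases. It was at 4.0, 6.6 and 3.1 normalized CPM in control replicates, 27.0, 35.0 and 4.8 in compound KO replicates and 28.9, 61.1 and 23.7 in double KO replicates. All double KO libraries were above all control libraries, while compound KO replicates 1 and 2 lay with the double KO libraries and replicate 3 lay within the control range. The mean in double KO lenses (37.9 ± 20.3, SD, n = 3) was 8.3 times that in control lenses (4.57 ± 1.82, SD, n = 3). The log2 fold change was 2.73, with a standard error of 0.41, a 95% interval from 1.71 to 3.75 and an unadjusted p of 0.0007, and the call was missed after adjustment (adjusted p = 0.109, limma). Over the settings tried, the adjusted p lay between 0.0754 and 0.444 (limma), so that the gene was never called. The exact permutation test over these libraries gave p = 0.1 (two-sided), the smallest that 3 against 3 allow. Between compound KO and control lenses the log2 fold change was 1.74 (95% interval −0.07 to 3.56, adjusted p = 0.481, limma). Erythroid and skeletal muscle markers were also higher in double KO than in control libraries. In compound KO replicates 1, 2 and 3 the summed erythroid markers were 1426, 2060 and 2839 and the muscle markers 400.7, 46.4 and 26.7. The part of either cell type in the *Map2k4* values was not tested.

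*Map2k7*, which encodes the JNK-specific kinase MKK7, lies on chromosome 8 from 4288734 to 4297897. It was at 34.2, 11.8 and 12.7 in control, 15.6, 16.1 and 35.8 in compound KO replicates. In double KO lenses it was at 16.4 in replicate 1, 34.2 in replicate 2 and within 0.1 of the first in replicate 3. The 9 libraries thus lay at 2 levels, with 3 of them between 34.2 and 35.8, 1 in each genotype, and the other 6 lower, from 11.8 upward. The log2 fold change was 0.27 for double KO against control (95% interval −0.95 to 1.48, adjusted p = 0.91, limma), an interval that holds a 1.5-fold change in either direction. A second protein-coding gene of the annotation, *Gm49320*, covers most of *Map2k7* on the same strand, and how reads were divided between them was not tested.

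**Figure D3:**
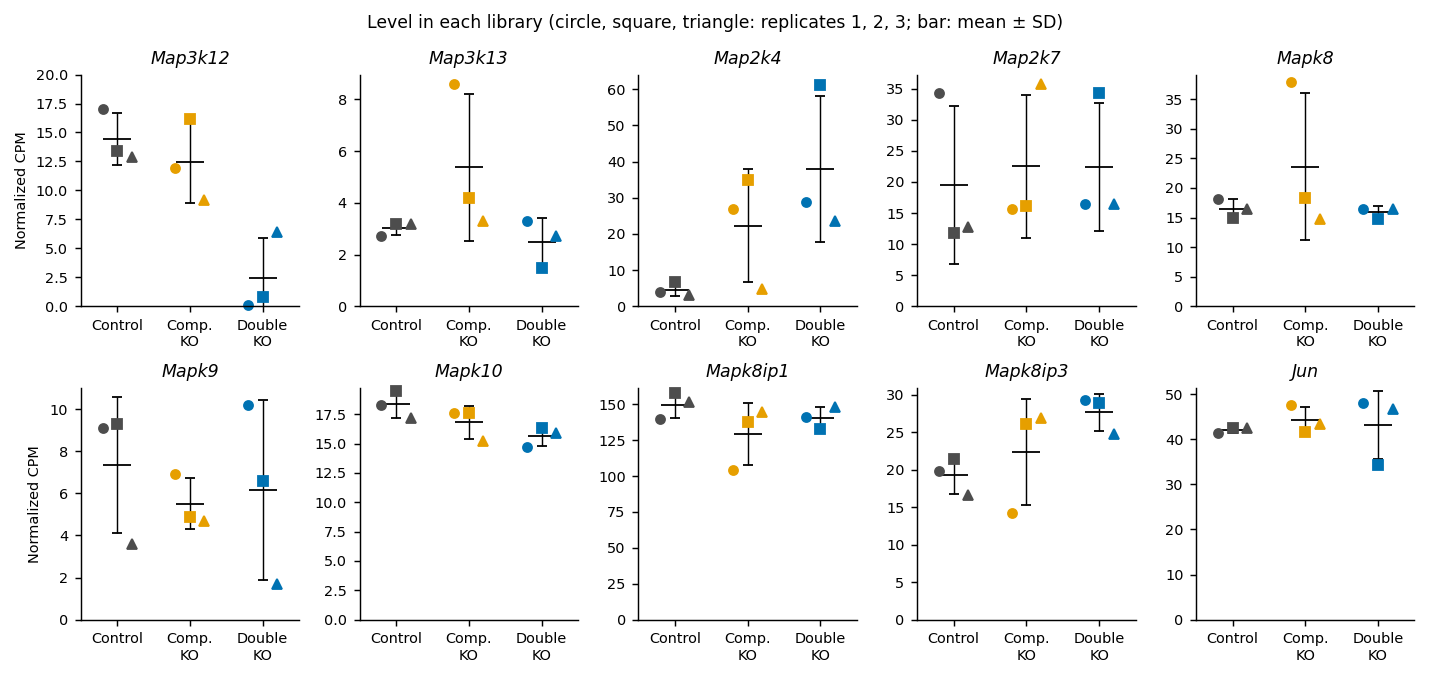
Normalized CPM (linear axes from 0) of the 10 genes in the 3 replicates of each genotype, with bars for mean ± SD. *Map3k12* is lowest in the double KO libraries (0.1 to 6.4), *Map2k4* is high in all double KO and in 2 compound KO libraries, and *Map2k7* shows 1 library near 35 in each genotype.

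None of the 3 JNK genes was past the unadjusted rule between control and double KO lenses. *Mapk8* (JNK1; chromosome 14, 33099855 to 33169157) was at 18.1, 14.9 and 16.4 in control replicates and at 14.7 and 16.4 in double KO replicates 2 and 3, with replicate 1 within 0.1 of replicate 3. The genotypes overlapped, with a log2 fold change of −0.05 and a 95% interval from −0.29 to 0.19. Compound KO replicates were at 37.8, 18.3 and 14.7, the first in the library that stood apart. *Mapk10* (JNK3, the isoform enriched in brain; chromosome 5, 103055814 to 103359375) was at 18.3, 19.5 and 17.2 in control, 17.6, 17.6 and 15.2 in compound KO and 14.7, 16.3 and 15.9 in double KO replicates. The double KO libraries all lay below the control libraries, and the log2 fold change of −0.22 (95% interval −0.42 to −0.02, unadjusted p = 0.0383, adjusted p = 0.463, limma) was below 1.5-fold. *Mapk9* (JNK2; chromosome 11, 49737514 to 49779038) varied within genotypes, at 9.1, 9.3 and 3.6 in control, 6.9, 4.9 and 4.7 in compound KO and 10.2, 6.6 and 1.7 in double KO replicates. With a 95% interval from −1.87 to 1.17, its difference between double KO and control lenses was not resolved.

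Of the scaffolds, *Mapk8ip3* was higher in double KO lenses. Its gene (chromosome 17, 25111127 to 25155995) encodes JIP3, which ties JNK to kinesin transport and also binds Map3k12. It was at 19.9, 21.5 and 16.6 in control, 14.2, 26.1 and 26.9 in compound KO and 29.3, 28.9 and 24.8 in double KO replicates. All double KO libraries exceeded the control libraries, with a log2 fold change of 0.50 (95% interval 0.20 to 0.80, unadjusted p = 0.00675, adjusted p = 0.273, limma), and the estimate lay below the 1.5-fold threshold. *Eme2*, a gene on the same strand that overlaps its end, was between 27.5 and 29.3 in control and between 23.2 and 26.0 in double KO libraries. *Mapk8ip1* (JIP1; chromosome 2, 92214016 to 92231709) was between 140 and 157.8 in control and between 132.7 and 147.8 in double KO libraries, with overlap, a log2 fold change of −0.09 and a 95% interval from −0.25 to 0.08.

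*Jun* (chromosome 4, 94937271 to 94940459) was at 41.4, 42.4 and 42.5 in control, 47.5, 41.7 and 43.5 in compound KO and 48.1, 34.4 and 46.7 in double KO replicates. The control libraries were close together, and the double KO libraries lay on both sides of them. Double KO minus control came to 0.02 on the log2 scale, and its 95% interval from −0.32 to 0.35 holds no change of 1.5-fold in either direction (adjusted p = 0.984, limma).

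Across the pathway, double KO lenses were compared with control lenses, which keep 1 allele each of *Mafg* and *Mafk*. Of the 10 genes, all were tested and 0 were called by limma after adjustment, where 0.361% of all genes tested were called. By an unadjusted rule, p of 0.05 or less with a change of 1.5-fold, *Map2k4* was higher and *Map3k12* was lower, against 1.59% and 1.24% of all genes in these directions. With no fold threshold, 4 had an unadjusted p of 0.05 or less, as did 9.97% of all genes. Libraries did not overlap for 4 of the 10, *Map2k4* and *Mapk8ip3* being higher and *Map3k12* and *Mapk10* lower, where 7.78% of all genes were higher and 8.04% lower without overlap, 15.8% in all. *Map3k12* was chosen from these libraries and the list with results known, so nothing further is read from these counts. The median log2 fold change was −0.069 over the 10 genes and 0.011 over all genes.

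**Figure D4:**
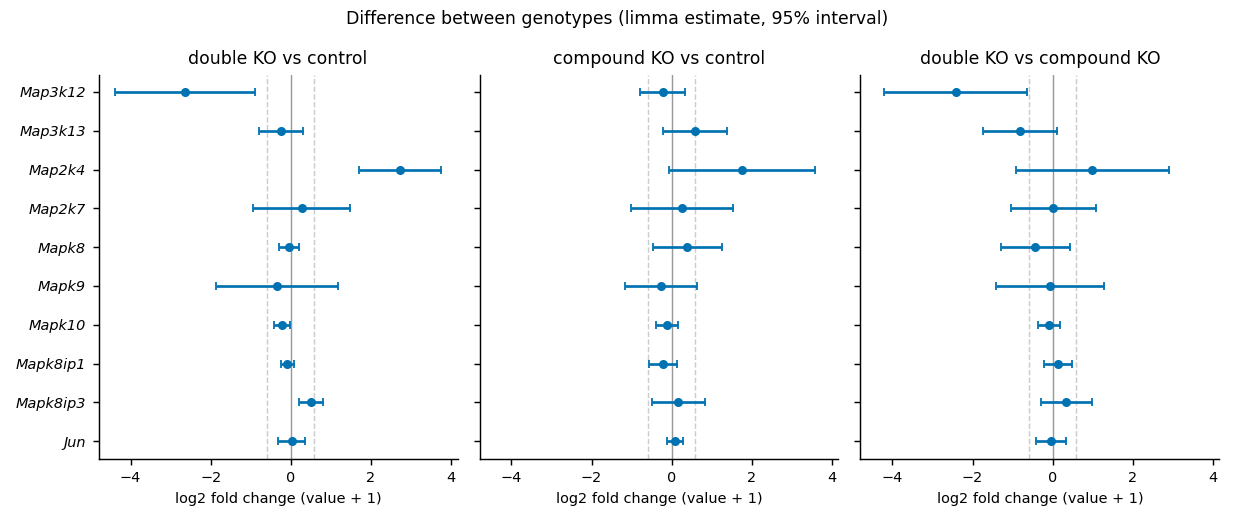
Estimated log2 fold change of the 10 genes in the 3 comparisons, with 95% intervals from limma, a solid line at 0 and dashed lines at 1.5-fold. Between double KO and control lenses *Map3k12* (−2.65) and *Map2k4* (2.73) lie on opposite sides. All other estimates there lie within 1.5-fold, and some of their intervals reach beyond it.

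The compound KO lenses keep 1 *Mafk* allele and differ from control lenses by label in the second *Mafg* allele. Against control lenses, 0 of the 10 genes were called by limma, as were 0% of all 14348 genes tested (1335 of them had an unadjusted p of 0.05 or less), and 0 of the 10 had an unadjusted p of 0.05 or less. Only *Map3k13* had no overlap, where 23.9% of all genes had none. Its lowest compound KO value (3.3) and highest control value (3.2) differ only in the last digit of the rounded values. The log2 fold change of *Map3k12* was −0.22, with a 95% interval from −0.79 to 0.34 (adjusted p = 0.632, limma). By the unadjusted rule, which 5.34% of all genes passed, the number was 0 with all libraries. It was 2 of 10 without compound KO replicate 3 (11.4% of all genes in that fit). Without control replicate 3 it was 1 of 10 (3.09% of all genes in that fit).

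The double KO was also set directly against the compound KO, from which it differs by label in the second *Mafk* allele. Summed neuronal markers were 1666, 404.1 and 161.4 in compound KO replicates and 228.8, 56.0 and 119.1 in double KO replicates. Effects of the allele and of such tissue differences cannot be told apart here. *Map3k12* was lower in the double KO by a log2 fold change of −2.42 (95% interval −4.21 to −0.64, unadjusted p = 0.0163, adjusted p = 0.665, limma), without overlap. It was the single gene of the 10 past the unadjusted rule, where 2.2% of all 14402 genes were lower by this rule, and 0 of the 10 were called after adjustment (0.0139% of all genes). It was no longer past the unadjusted threshold in fits without compound KO replicate 2 or double KO replicate 2, which left 0 of 10. In these fits 3.59% and 1.77% of all genes were past the rule in either direction, against 3.06% with all libraries. The count was 2 of 10 without compound KO replicate 3 (7.98% of all genes in that fit). Libraries did not overlap for *Map3k12* alone among the 10, against 15.6% of all genes. For *Map2k4* the log2 fold change was 0.99, and its 95% interval from −0.92 to 2.90 leaves the difference between the knockouts unresolved. The estimate was between 0.17 and 1.49 as single libraries were left out, the lowest being without compound KO replicate 3. The comparisons share libraries, so their values are given side by side and not as separate evidence.

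Beyond the 10 genes, 100 genes of the wider pathway were listed in 8 groups, of which 87 were in the table (2 under the older symbols *Zak* and *Skp1a*). Of these, 78 were tested between double KO and control lenses and 0 were called by limma after adjustment, while 8 (10.3%) had an unadjusted p of 0.05 or less, a share near the 9.97% of all genes. By the unadjusted rule 1 was higher and 0 were lower, that is 1.28% against 2.83% of all genes. Libraries did not overlap for 12 genes, 7 of them higher and 5 lower (15.4%, against 15.8% of all genes). The gene past the threshold was *Map2k3*, which encodes the p38 kinase activator MKK3. It was at 32.8, 44.5 and 33.9 in control, 26.8, 52.0 and 58.3 in compound KO and 63.4, 60.0 and 52.5 in double KO replicates, and its log2 fold change was 0.66 with a standard error of 0.14 (adjusted p = 0.228, limma). All double KO libraries were above all control libraries.

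By group, the median log2 fold change of double KO against control was 0.07 for 7 other JNK scaffolds, 0.04 for 14 other MAP3 kinases, −0.02 for 10 MAP4 kinases and adapters, −0.03 for 7 genes of DLK turnover and trafficking and −0.04 for 7 JNK phosphatases. It was 0.04 for 16 AP-1 factors and other JNK substrates and 0.03 for 10 genes of the p38 and ERK arms. The 7 tested genes of the DLK and Jun injury response had a median of 0.35, and 0 of them were past the unadjusted rule (2.83% of all genes). The median is the value of *Gap43*, a growth cone gene that is also on the list of neuronal markers, at 9.8, 2.5 and 8.9 in control and 16.8, 3.4 and 8.9 in double KO replicates, with overlap and a standard error of 0.66. Among them, *Klf6*, a zinc finger factor, was at 27.5, 27.2 and 25.6 in control and 36.9, 38.6 and 35.2 in double KO replicates (log2 fold change 0.45, unadjusted p = 0.000474, adjusted p = 0.0826, limma). *Klf6* was named after its values were seen. Of the 16 tested AP-1 factors and JNK substrates, 0 were past the unadjusted rule (2.83% of all genes) and 0 had libraries that did not overlap (15.8% of all genes). *Jund*, a Jun relative, was at 60.9, 59.7 and 59.3 in control and 68.8, 55.4 and 60.2 in double KO replicates. *Fos*, a partner of Jun, was not tested because of its low level, which was 0.4, 0.3 and 0.4 in control and 0.8, 0.5 and 1.0 in double KO replicates.

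**Figure D5:**
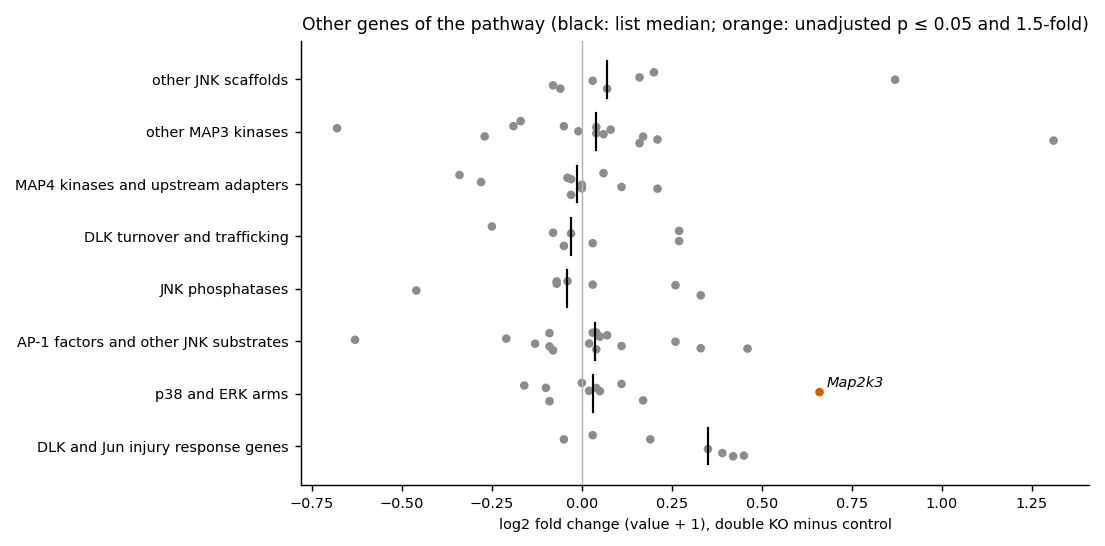
Log2 fold change, double KO minus control, of each tested gene of 8 lists, with the list median as a black bar. *Map2k3* (0.66) is the labelled gene past an unadjusted p of 0.05 and 1.5-fold, and the injury response list has the highest median, 0.35, which is the value of *Gap43*.

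Between compound KO and control lenses, 3 of 81 tested pathway genes were higher by the unadjusted rule (3.7%, against 3.81% of all genes), 9 (11.1%, against 9.3% of all genes) had an unadjusted p of 0.05 or less at any fold, and 0 were called by limma after adjustment. They were *Sh3rf3*, a JNK scaffold, *Dcx*, a microtubule protein of young neurons, and *Sox11*, a factor of neuronal progenitors. *Sox11* was at 157.3, 51.8 and 28.8 in compound KO and at most 23.0 in control replicates, and *Sh3rf3* was at 11.9, 5.1 and 2.2 in compound KO and at most 1.8 in control replicates. Both were highest in compound KO replicate 1, as were summed neuronal markers, whose part in these values was not tested. *Dcx* was at 10.8, 17.8 and 3.0 in compound KO and 0.1, 0.9 and 3.8 in control replicates, and in double KO lenses it was between 0.4 and 2.7 and below all compound KO libraries. The count was 2 without compound KO replicate 1 (3.68% of all genes in that fit). It was 1 without control replicate 2 or 3, where 2.68% and 3.09% of all genes were past the rule. Without compound KO replicate 3 it was 13 of 81, and the share of all genes past the rule also rose, from 5.34% to 11.4%. Between double KO and compound KO lenses *Dcx* alone of 84 genes was past the unadjusted rule (1.19%, against 2.2% of all genes that were lower, log2 fold change −2.25, adjusted p = 0.665, limma). The count was 2 without compound KO replicate 2 (3.59% of all genes in that fit) and 0 without double KO replicate 1 (3.17%). Without compound KO replicate 3 it was 11 of 84, where the share of all genes past the rule went from 3.06% to 7.98%.

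*Map3k12*, *Map2k4* and *Mapk9* also varied widely within a genotype. On the scale of the value plus 1, these 3 of the 10 spanned 4-fold or more between replicates of at least 1 genotype, as did 18 of 84 other pathway entries (21.4%) and 11.7% of all 14578 entries tested. *Usp9x*, a deubiquitinase that acts on DLK, was at 25.2, 258.2 and 4.4 in control and 158.3, 1.5 and 159 in double KO replicates. *Map3k11* (MLK3) was at 0.1 in control replicate 1 and between 20.6 and 25.5 in the other 8 libraries. Both were named after their values were seen. The pooled SD within genotypes was 0.86 log2 units for *Map3k12* and 0.96 for *Map2k4*, larger than in 91.5% and 93.2% of entries, while *Mapk10* was among the steadiest at 0.09.

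The genes most like *Map3k12* over the 9 libraries were ranked by the root mean square difference between log2 profiles centred on their own means, among 14577 entries. They were *Tvp23a* and *Adgrg1* (0.72 each), *Mafk* (0.76), *Mllt4* (0.77) and *Txnl4a* (0.79), where the profile of *Map3k12* itself had a root mean square of 1.39. *Adgrg1*, an adhesion receptor, was at 0.0, 0.0 and 7.2 in double KO replicates and between 2.7 and 9.5 elsewhere. Like *Map3k12*, it was higher in replicate 3 than in the other double KO libraries. *Tvp23a* was at 4.6, 4.7 and 11.8 in double KO replicates and between 14.3 and 23.0 elsewhere. *Mafk*, one of the deleted genes, was near 0 in all 3 double KO libraries. The distances are large beside the profile itself, so that none of these genes follows *Map3k12* closely.

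The other members were ranked in the same way. For *Map2k7* the nearest gene was *Fip1l1* (root mean square difference 0.23), which encodes a factor of mRNA polyadenylation. *Fip1l1* was at 50.3, 25.7 and 25.7 in control, 20.5, 21.4 and 61.1 in compound KO and 23.6, 50.5 and 26.5 in double KO replicates, so that the same 3 libraries were high for both genes. The gene nearest to *Mapk9* was *Slc52a2* (0.36). In it, and in *Fbxl19* and *Snx10* among the 5 nearest, control replicate 3 was not among the 2 lowest libraries. The other genes of these 5 were *Npm1* and *Srr*. *Npm1*, which encodes nucleophosmin, was at 90.0 in control replicate 3 and 86.0 in double KO replicate 3 and between 185.3 and 232.1 elsewhere, and *Srr*, the serine racemase gene, was at 11.6 and 7.4 in these libraries and between 15.4 and 23.6 elsewhere. *Mapk9* was lowest in the same 2 libraries. *Map2k3* was second among the genes nearest to *Mapk8ip3* (0.12). For *Map2k4* the nearest were *Tmem179* (0.63) and *Ncapd2* (0.65), a condensin subunit gene, at 3.7, 3.0 and 9.8 in control and 50.2, 43.5 and 26.7 in double KO replicates. All of these genes were picked for their likeness, so their values are a description with no test.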

How the data were processed

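RNA was from lenses pooled by 8 per library, 3 libraries per genotype. The authors aligned reads to mm39 with HISAT2, assembled and counted with StringTie, scaled with edgeR and removed low entries. Trimmomatic and Cufflinks are also named in the submitters' processing notes, and no versions are given in the sources used here. The deposited signal values are normalized CPM rounded to 1 decimal, so read counts could not be recovered and no count test was run. The rounding coarsens low values.

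Here, log2(value + 1) was fitted with limma 3.58.1 (R 4.3.3, intensity trend) for each pair of genotypes, over entries with a symbol at 1 or more in at least 2 of the 6 libraries. P-values were adjusted by Benjamini-Hochberg over all genes tested, and a call needed an adjusted p of at most 0.05 and 1.5-fold. An unadjusted p of at most 0.05 with 1.5-fold is given beside it. The labels do not say that pools came from separate litters, so p-values measure the spread between these libraries. The 10 genes and all lists were chosen with earlier results of these data known. All 10 genes were named, other pathway genes where past the unadjusted rule, and the 5 genes nearest to *Map3k12*. *Klf6*, *Gap43*, *Jund*, *Fos*, *Usp9x*, *Map3k11* and genes near the other members were named after their values were seen. Alternatives were scaling, filter, pseudocount, trend, summed symbols, 1 fit of all 9 libraries, a replicate block and each library left out.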

Additional observations from a re-analysis of the deposited data

How the results depend on the processing

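After adjustment, 0 of the 10 genes were called in the 3 comparisons under the settings tried, except that *Map3k12* passed for double KO against control without double KO replicate 3, so that this count ranged from 0 to 1 and its log2 fold change from −3.45 to −2.07 as single libraries were left out. With a pseudocount of 0.1 its log2 fold change was −3.77 against control and −3.53 against compound KO lenses. By the unadjusted rule, which also needs 1.5-fold, the count was 2 between double KO and control, 1 between double KO and compound KO and 0 between compound KO and control lenses. With a minimum of 1 in every library *Map3k12* had no value in the comparisons with double KO lenses. *Map2k4* kept its direction in the 3 comparisons under all settings. Scaling by library size moved the median log2 fold change of all genes from 0.016 to 0.244 between compound KO and control and from −0.005 to −0.172 between double KO and compound KO lenses. It also moved the unadjusted split of higher and lower genes from 547 and 219 to 748 and 91 between compound KO and control lenses, and from 225 and 175 to 281 and 137 between double KO and control lenses. Under it, signs turned for *Map3k12* (0.0165), *Mapk10* (0.1243) and *Mapk8ip1* (0.0302) between compound KO and control, for *Mapk8* (0.0177) between double KO and control, and for *Map2k7* (−0.1647) and *Mapk8ip1* (−0.0493) between double KO and compound KO lenses, and the first 3 of these lie below the shift of all genes. With single libraries left out, values near 0 crossed it. Between double KO and control lenses these ranges were −0.11 to 0.018 for *Mapk8*, −0.069 to 0.17 for *Jun*, −0.072 to 0.74 for *Map2k7* and −0.79 to 0.24 for *Mapk9*. Between compound KO and control lenses they were −0.12 to 0.72 for *Map2k7* and −0.0009 to 0.65 for *Mapk8*. Between double KO and compound KO lenses they were −0.33 to 0.39 for *Map2k7*, −0.50 to 0.52 for *Mapk9*, −0.0073 to 0.23 for *Mapk8ip1* and −0.14 to 0.10 for *Jun*. The cause of these changes was not tested.

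Across genes, deviations of libraries with the same replicate number correlated between −0.106 and 0.216. Libraries with different numbers were not compared, so whether the numbers mark a shared batch or litter was not tested. With the replicate block 0 of the 10 genes were called, and the adjusted p in limma was 0.498 for *Map3k12* and 0.0754 for *Map2k4* between double KO and control lenses. Unknown depth and 3 libraries per genotype limit these comparisons, most for genes whose replicates differ severalfold.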
